A study of Drosophila melanogaster with 3 samples.

Results

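The genes examined were aop, pnt, edl, sty, aos and Cbl, 6 of the 13945 protein-coding genes annotated on the 6 main arms (X, 2L, 2R, 3L, 3R and 4). They were named in advance as the ETS-domain branch and the feedback inhibitors of epidermal growth factor receptor (EGFR) signalling, with earlier results of these data known. Peaks were assigned to a gene when they lay in its body or within 10 kb of it. The study mapped the zinc finger transcription factor Stripe (gene sr) by chromatin immunoprecipitation and sequencing (ChIP-seq) in 3 biological replicates of Drosophila melanogaster embryos aged 8 to 24 hours. All libraries came from the strain labelled sr-GFP, a transgenic line with an insertion that targets sr and produces an sr-eGFP fusion, and chromatin was precipitated with an antibody to GFP according to the sample description, although the antibody entry names sr. Whole embryos were used, and the signal is therefore a sum over cells with and without Stripe. No second genotype, age or treatment was present, so no conditions were compared, and the values below are descriptions with no test.

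EGFR signalling in the fly passes from secreted ligands through the receptor to Ras and the MAP kinase cascade, which acts in the nucleus on 2 opposing ETS factors. The activator Pointed (pnt) and the repressor Anterior open, also called Yan (aop), recognise the same kind of DNA site, and Edl (also called Mae) binds them through its SAM domain and limits their activity. Sprouty (sty) and the secreted protein Argos (aos) are inhibitors whose genes are switched on by the pathway itself, whereas Cbl is a ubiquitin ligase that promotes removal of the receptor. In the embryonic epidermis the pathway is best known in this setting for the maturation of tendon cells, in which Vein from the muscle activates the receptor and Stripe is the tendon-specific regulator.

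A region was called shared when thresholded peak summits of all 3 libraries, each widened by 100 bp on both sides, merged into 1 interval. The sequences around the centres of 7 regions are printed below. Each is 201 bases of the dm6 forward strand, read 5′ to 3′ from the Release 6 assembly of RefSeq. Capitals mark the core motif of EGR-type zinc fingers, the family of Stripe, which is GTGGGCG or GTGGGTG on either strand. In regions without that core, capitals mark GAGAG, the GAGA factor motif, on either strand. The first sequence is the strongest region, and it has no core. The next are the 2 core-bearing regions upstream of aop, the shared region of pnt with its 5 partly overlapping GAGAG matches, and the only core-bearing shared region of sty. The last are the shared region of aos, which lacks the core, and a region upstream of aos that has a core near its centre but was found in 2 libraries.
aop internal promoter, chr2L:2161619-2161819: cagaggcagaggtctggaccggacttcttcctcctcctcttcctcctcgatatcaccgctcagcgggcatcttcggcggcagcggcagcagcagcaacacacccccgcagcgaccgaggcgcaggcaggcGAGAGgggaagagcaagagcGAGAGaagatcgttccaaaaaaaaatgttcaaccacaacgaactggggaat
aop upstream, chr2L:2179323-2179523: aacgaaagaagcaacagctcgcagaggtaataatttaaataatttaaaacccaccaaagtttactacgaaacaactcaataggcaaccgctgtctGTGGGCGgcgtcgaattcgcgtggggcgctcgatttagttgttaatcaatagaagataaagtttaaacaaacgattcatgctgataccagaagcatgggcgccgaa
aop farther upstream, chr2L:2180064-2180264: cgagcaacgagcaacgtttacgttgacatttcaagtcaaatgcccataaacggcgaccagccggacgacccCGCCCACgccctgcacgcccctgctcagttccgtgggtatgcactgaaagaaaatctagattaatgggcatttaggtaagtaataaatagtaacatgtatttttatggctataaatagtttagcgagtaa
pnt internal promoter, chr3R:23295403-23295603: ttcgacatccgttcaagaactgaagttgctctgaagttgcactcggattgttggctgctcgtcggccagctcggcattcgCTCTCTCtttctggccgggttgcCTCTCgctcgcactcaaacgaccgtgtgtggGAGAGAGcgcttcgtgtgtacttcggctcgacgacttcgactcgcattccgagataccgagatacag
sty intron, chr3L:3411041-3411241: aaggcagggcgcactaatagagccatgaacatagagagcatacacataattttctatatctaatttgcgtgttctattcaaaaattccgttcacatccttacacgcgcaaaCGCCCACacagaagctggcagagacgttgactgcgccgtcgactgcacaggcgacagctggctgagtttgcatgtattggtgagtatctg
aos intron, chr3L:16480480-16480680: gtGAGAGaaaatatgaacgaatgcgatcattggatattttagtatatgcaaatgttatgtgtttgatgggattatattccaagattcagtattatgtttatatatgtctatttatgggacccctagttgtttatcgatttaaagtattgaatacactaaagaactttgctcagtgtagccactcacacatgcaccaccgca
aos upstream, chr3L:16487289-16487489: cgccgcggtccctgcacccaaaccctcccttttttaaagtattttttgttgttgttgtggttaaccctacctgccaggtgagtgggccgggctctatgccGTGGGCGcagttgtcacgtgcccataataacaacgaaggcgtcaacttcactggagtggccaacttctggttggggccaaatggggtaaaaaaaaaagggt

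The thresholded lists of replicates 1, 2 and 3 held 2754, 1683 and 3013 peaks, and the ranked lists behind them 81528 to 89928. On the arms they formed 4000 merged regions, of which 1180 were shared, 1007 were in 2 libraries and 1813 in 1. Depth is unknown, since the lists carry no read totals, and the length of each list sets how much it can show. Peak signal is printed as the authors gave it, with no stated normalization, and percentiles rank it within the thresholded list of its own library, where 100 is the strongest. All libraries were called against the same control file.

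Stripe peaks reached threshold at 5 of the 6 genes and were not detected at Cbl. The windows of aop and sty held 4 shared regions each, and those of pnt, edl and aos held 1 each, 11 in all. Cbl held 0. Of all protein-coding genes, 23.5% had a shared region in the same kind of window, and 33.0% of the 2697 genes between the shortest and the longest of the 6 in length did. Thresholded summits were present at 5 of the 6 genes in each library, against 41.3%, 30.4% and 44.7% of protein-coding genes in replicates 1, 2 and 3. The conservative list that the authors made from all libraries together also had peaks at 5 of 6, against 51.1% of genes. Within the gene body alone, 8 shared regions were spread over the same 5 genes, and 4.90% of protein-coding genes had one there. That share covers genes of every length and was not matched for length, although a longer body has more room for a region. Without replicate 2, whose list is the shortest, the other libraries shared 17 regions in the 6 windows, over the same 5 genes. Dropping a library can hardly lower these counts, so the 5 genes are not tested by it. The share over all genes rose as well under that setting, from 23.5% to 32%.

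The density of shared regions differed among the genes. It was 0.946 per 10 kb of window at aop and 0.914 at sty, compared with 0.384 at edl, 0.301 at aos and 0.132 at pnt, which has the longest window of the 6 at 75937 bp. Over the arms as a whole the density was 0.0881 per 10 kb. Only 22 protein-coding genes had more than the 4 shared regions of aop or sty, and 0.366% had as many or more. These counts cover genes of every length and were not matched for length, although a longer window has more room for regions. The density over the arms includes sequence outside gene windows. With 1 shared region, pnt, edl and aos were among the 23.5% of genes with any.

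**Figure D1:**
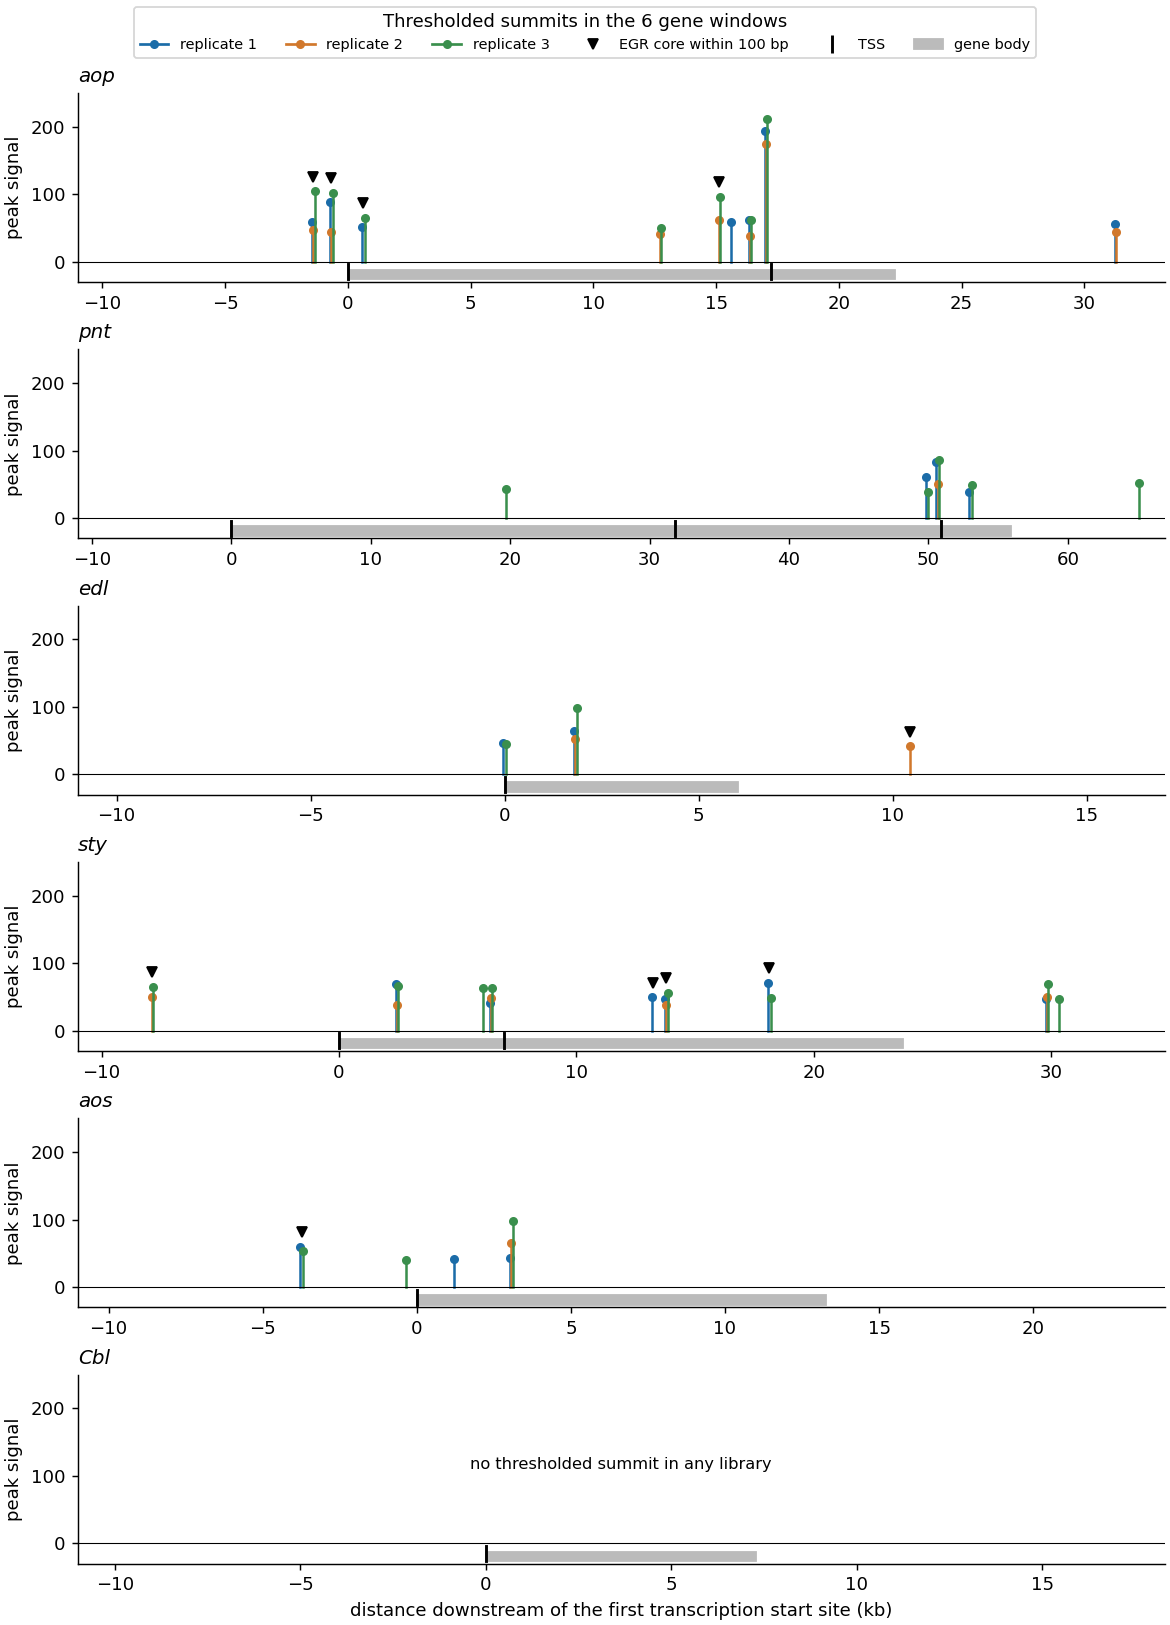
Signal (authors' value, vertical axis) of the strongest thresholded summit of each library in each merged region of the 6 gene windows. Stems stand at the region centre, by distance downstream of the first transcription start site in kb (horizontal axis), shifted slightly sideways by replicate. Grey bars are gene bodies, black ticks start sites and triangles regions with the EGR core within 100 bp of the centre. The tallest group, at the internal start site of aop, stood between 175 and 212, and Cbl had no summit.

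The repressor gene aop (FBgn0000097, 2L 2156484 to 2178754, reverse strand) carried the strongest of all these regions. It was centred at 2L 2161719, 192 bp upstream of the internal transcription start site (TSS) of the gene, which lies 17227 bp downstream of the first. Its signal was 193 in replicate 1, 175 in replicate 2 and 212 in replicate 3. The libraries were close to one another, the lowest of these values exceeded the highest of any other shared region of the 6 genes (104), and the mean was 193 ± 18.5 (SD, n = 3). The region stood at the percentiles 98.6, 98.0 and 98.1 of the 3 lists and was number 32 of the 1180 shared regions by mean percentile. The summits of the libraries lay within 7 bp. In the conservative list the peak there had a signal of 585 and was number 39 of 4041 on the arms.

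A second shared region of aop lay in the intron, 846 bp upstream of the internal TSS at 2L 2162373. Its signal was 61.8 in replicate 1, 38.7 in replicate 2 and 61.7 in replicate 3, a mean of 54.0 ± 13.3 (SD, n = 3), so replicate 2 was low there and stood at percentile 16.9. Upstream of the first TSS were the remaining regions, 669 bp away at 2L 2179423 and 1410 bp away at 2L 2180164, both with the core shown above. The nearer had signals of 87.7, 44.5 and 102 (78.0 ± 29.9, SD, n = 3), and its core was 2 bp from the centre. The farther had signals of 59.1, 47.6 and 104 (70.2 ± 29.8, SD, n = 3), with the core 26 bp from the centre. At both, replicate 3 was highest and replicate 2 lowest.

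The window of aop held 5 more merged regions. Those found in 2 libraries were in the intron at 2L 2163653 and 2L 2166044, in the 5′ UTR of the long transcript at 2L 2178117, and at 2L 2147464, which is 54 bp upstream of Tbcd and 14063 bp from the nearest TSS of aop. The region at 2L 2163653 had a core 7 bp from its centre and signals of 61.5 in replicate 2 and 95.3 in replicate 3, in each of these libraries above the shared intronic region at 2L 2162373. In replicate 1 the ranked list held a peak of signal 14.9 there, with a global irreproducible discovery rate (IDR) of 0.483, against the threshold of 0.01. The global IDR measures how inconsistently a peak ranks between peak lists. The region at 2L 2178117 also had a core, 36 bp from its centre.

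The activator gene pnt (FBgn0003118, 3R 23290231 to 23346167, reverse strand) has 3 TSSs over 50929 bp, and most of its regions lay near the last. The shared region at 3R 23295503 lay 265 bp upstream of that TSS. Its signal was 82.6 in replicate 1, 50.6 in replicate 2 and 86.1 in replicate 3 (73.1 ± 19.6, SD, n = 3). Replicate 2 was lowest, and its percentile of 46.2 compares with 80.6 and 77.9 in the others. Regions on either side, at 3R 23296272 and 3R 23293140, passed in replicates 1 and 3 and fell short in replicate 2, where the ranked peaks had a global IDR of 0.013 and 0.0174. Single-library regions of replicate 3 lay 12220 bp from the middle TSS at 3R 23326535 (signal 42.8) and beyond the gene, 30 bp upstream of Cdc16, at 3R 23281171 (51.4). None of the 5 merged regions of pnt held the EGR core, and no thresholded summit lay within 10 kb of its first TSS.

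The gene of the ETS regulator Edl (FBgn0023214, 2R 18667527 to 18673536, reverse strand) is the shortest of the 6. Its shared region was intronic, 1819 bp downstream of the single TSS at 2R 18671717, with signals of 64.6, 52.8 and 98.9 in replicates 1, 2 and 3 (72.1 ± 23.9, SD, n = 3). Replicate 3 stood above the others, at percentile 83.6 against 67.8 and 50.4. A region at the TSS itself (2R 18673537) passed in replicates 1 and 3 with signals of 46.7 and 44.9, and in replicate 2 a ranked peak of signal 37.3 had a global IDR of 0.161. A summit of replicate 2 alone, with a core, lay beyond the end of the gene at 2R 18663090, 1542 bp upstream of CG42306.

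The feedback inhibitor gene sty (FBgn0014388, 3L 3401153 to 3424935, reverse strand) had regions spread along its length. Downstream of the first TSS, the shared ones lay at 2449 bp (3L 3422486), 6410 bp (3L 3418525), 13794 bp (3L 3411141) and 29833 bp (3L 3395102), the last of them past the end of the gene. Their signals in replicates 1, 2 and 3 were 68.8, 38.8 and 65.7 at the first, a mean of 57.8 ± 16.5 (SD, n = 3). At the second, 564 bp upstream of the internal TSS, they were 40.8, 47.9 and 63.0 (50.6 ± 11.4). The third, with the core 14 bp from its centre, had 46.7, 37.6 and 55.8 (46.7 ± 9.10), the lowest mean of the 11. The region past the gene had 47.3, 50.5 and 69.9 (55.9 ± 12.3), and its nearest TSS was that of Ids, 16834 bp away. The ranges of the 4 overlapped, and none was the strongest of sty in every library.

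The window of sty held 5 more merged regions. Of these, the 2-library regions at 3L 3406808 (core 6 bp from the centre) and 3L 3432815 (core 72 bp from it, in an intron of the neighbour eIF5B) and the single-library region at 3L 3411695 (2 cores) had it. The region at 3L 3406808 had signals of 70.5 in replicate 1 and 47.9 in replicate 3. In replicate 1 that is more than any shared region of sty.

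The gene of the secreted inhibitor Argos (FBgn0004569, 3L 16470386 to 16483650, reverse strand) lies inside the span of CG33158, which is on the opposite strand. Its shared region was intronic to both genes, 3070 bp downstream of the TSS of aos at 3L 16480580. The signal was 42.4 in replicate 1, 65.5 in replicate 2 and 98.2 in replicate 3 (68.7 ± 28.1, SD, n = 3). These values are wide apart, and the percentile went from 25.2 in replicate 1 to 83.6 in replicate 3. The region 3739 bp upstream at 3L 16487389, with a core 3 bp from the centre, passed in replicates 1 and 3 (60.1 and 53.4), and the ranked peak of replicate 2 there had a global IDR of 0.0132. Summits of 1 library each lay 1249 bp downstream of the TSS (41.6, replicate 1) and 410 bp upstream (39.6, replicate 3).

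At Cbl (FBgn0020224, 3L 8424954 to 8432246, forward strand), the ubiquitin ligase gene, only the ranked lists held peaks, 16 in replicate 1 and 6 each in replicates 2 and 3. The best of replicate 1 lay 79 bp from the TSS, with a signal of 32.1 and a global IDR of 0.0697. The best of replicates 2 and 3 were 7941 and 3425 bp from it, with signals of 19.6 and 18.9 and global IDRs of 0.45 and 0.506, so these best peaks lay at different positions, and the weaker ranked peaks were not compared between libraries. The median ranked peak of the window had a signal of 10.5, 11.5 and 7.98 in replicates 1, 2 and 3, next to 10.6, 10.2 and 10.8 over all ranked peaks on the arms. At the other genes the best ranked peak of each library had a global IDR between 1e-05, the lowest value the lists give, and 0.0011. A peak at Cbl was not detectable at the threshold in these lists, which does not show that Stripe is absent there.

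**Figure D2:**
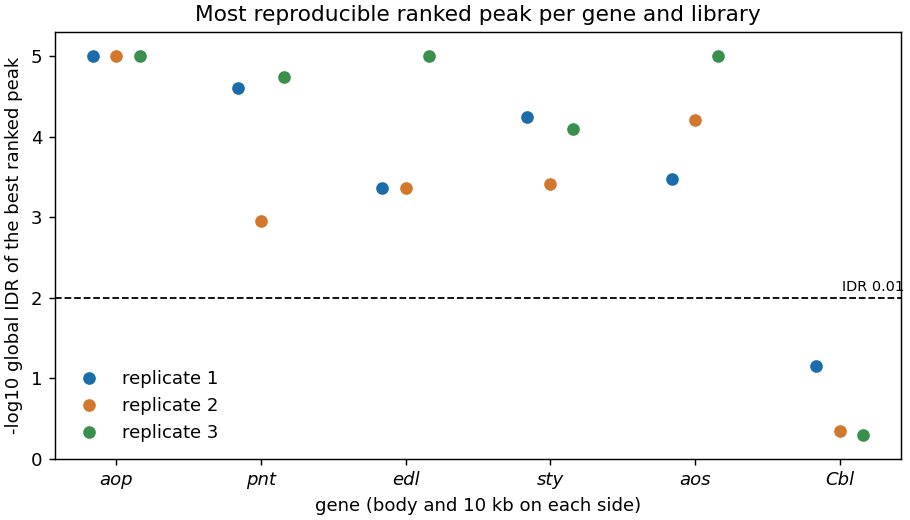
The −log10 of the global IDR (vertical axis) of the ranked peak with the lowest IDR in each gene window, for each library. The dashed line is the threshold at a global IDR of 0.01: every point of aop, pnt, edl, sty and aos lay above it, and the 3 points of Cbl, with IDRs from 0.0697 to 0.506, lay below.

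Ordered by mean signal, the aop promoter region stood first in each library, and its range was apart from that of the next. The other 10 could not be put in a firm order: all 9 neighbouring pairs among them overlapped in range. The second place went to aop at 2179423 in replicate 1, to aos in replicate 2 and to aop at 2180164 in replicate 3. Replicate 2 gave the lowest signal at 8 of the 11, and at 66.2% of all shared regions, so this was not limited to the 6 genes. Replicate 3 gave the highest at 9, for which the share over all shared regions was not counted. The summits of the libraries agreed to between 7 and 69 bp.

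**Figure D3:**
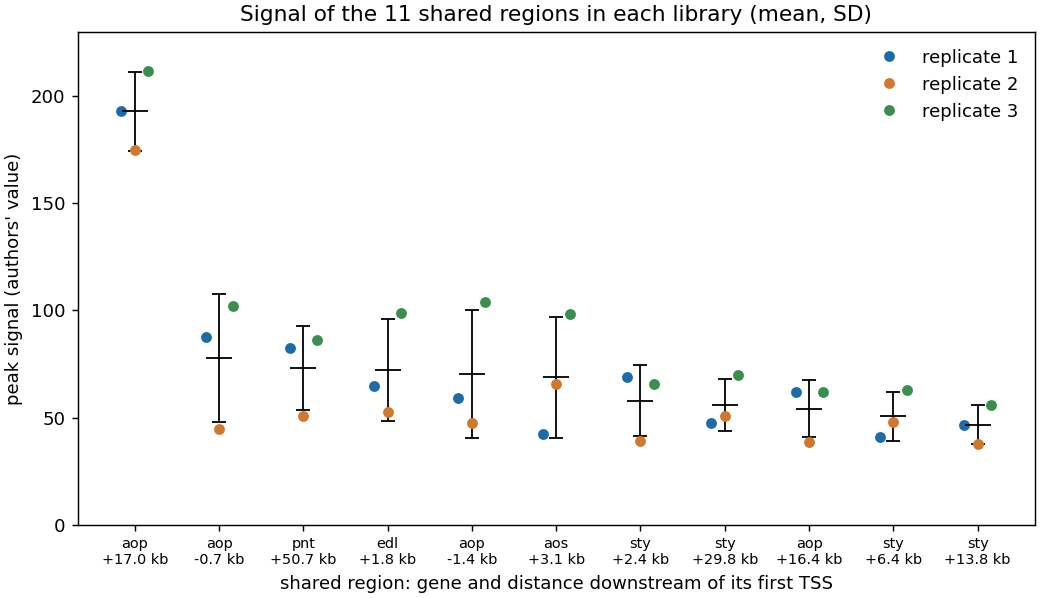
Peak signal (authors' value, vertical axis) of the 11 shared regions in each library, ordered by mean from left to right, with the gene and the distance downstream of its first TSS in kb below. Horizontal bars are means and whiskers 1 SD over 3 libraries; the first region, with a mean of 193, stood apart from the others, whose means went from 46.7 to 78.0.

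The 11 shared regions, that of the aop promoter included, had mean percentiles with a median of 59.5, and the median of all 1180 was 68.7. The aop promoter was the only one above the median of all, and 5 of the 11 were below 52.1, the lower quartile of all, of which 4 were those of sty and 1 was in the aop intron. The regions of pnt (68.2) and edl (67.3) fell just short of the median, and those of sty stood between 33.0 and 50.5. At a global IDR of 0.001 or less in every library, 2 shared regions were left, at aop and edl, while 16.6% of protein-coding genes still had one.

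**Figure D4:**
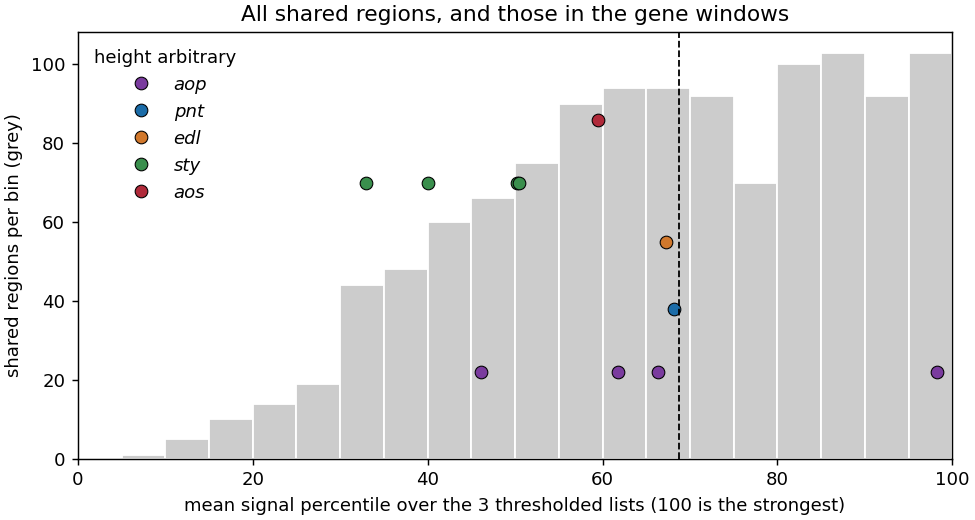
Mean signal percentile over the 3 thresholded lists (horizontal axis) of all 1180 shared regions, as a histogram in bins of equal width (grey, vertical axis), with the 11 regions of the 5 genes as coloured points at arbitrary height. The dashed line is the median of all, 68.7; of the points, that of aop at 98.2 lay to its right.

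The EGR core was in 3 of the 11 shared regions, those upstream of aop and the one in the intron of sty, against 49.1% of all shared regions. Windows of the same width 1000 bp to either side of all shared regions held it in 8.77%. Without replicate 1 the count was 5 of 14, without replicate 2 it was 6 of 17, and without replicate 3 it was 3 of 12. The share over all shared regions was not counted under these settings. In the 10 regions found in 2 libraries the core was in 5, and in the 9 of a single library it was in 2, compared with 37.7% and 25.5% of such regions over the arms. The strongest region was among those without it. In the whole windows of the 6 genes the core occurred 86 times, and 3 of these, 3.49%, lay within 100 bp of a shared centre, against 1.55% of the 54645 cores on the arms. The windows also held more shared regions per length, 0.443 per 10 kb against 0.0881 over the arms. More centres leave more cores near one, so these percentages do not compare the use of the core. All 3 of the cores near a shared centre were at aop and sty. The window of pnt had 21 cores, none of them within 100 bp of the centre of a merged region. Cbl had 6 cores but no merged region, so none of them could lie near a centre.

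Other motifs were counted in the same windows. GAGAG was in 6 of the 11 shared regions, among them those at the internal start sites of aop, pnt and sty, against 36.6% of all shared regions and 24.2% of flanks. The ETS-type sequence CCGGAA, of the kind that Pointed and Yan bind, was in 2, in the aop intron at 2162373 and in sty at 3422486. It was in 6.36% of all shared regions and 5.51% of flanks, which are close. In the gene windows it was in 0 of the 10 regions found in 2 libraries and 0 of the 9 of a single library. The AP-1 motif TGANTCA was in 0, against 2.97% of all shared regions and 4.53% of flanks. Each was searched on both strands, GAGAG matches may overlap one another, and a match says only that the letters are present.

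By annotation, 6 of the 11 shared regions were intronic, 3 intergenic and 2 promoters, a promoter being within 500 bp of the TSS of a protein-coding gene. Over all shared regions the shares were 41.4%, 13.9% and 37.6%. At aop, pnt and sty, the genes among the 6 with more than 1 TSS, a shared region lay 192, 265 and 564 bp upstream of the TSS farthest downstream. This position was singled out after the values were seen. Of the 1752 protein-coding genes with TSSs 1000 bp or more apart, 4.28% had a shared region within 1000 bp upstream of the last, or 11.0% of the 679 with any shared region in the window. At none of these 3 genes did a shared region lie within 500 bp of the first TSS. Within 1000 bp, aop had one there, 669 bp upstream, whereas pnt and sty did not. The share over all genes was not counted for the first TSS.

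Most places where a library had no thresholded summit still held a ranked peak of it. All 10 of the 2-library regions had a peak of the remaining library in its ranked list, with a global IDR from 0.0101 to 0.483, and in 5 it was 0.05 or less. Replicate 2 was the missing library in 6, replicate 1 in 3 and replicate 3 in 1. For the 9 single-library regions, 15 of the 18 empty places held a ranked peak, 4 of them at 0.05 or less. The conservative list held 29 peaks in the windows, of which 11 were at shared regions, 9 at 2-library regions, 6 at single-library regions and 3 elsewhere.

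The genes most like the strongest region of aop were sought among 923 genes by the distance in signal percentile over the 3 libraries, each shared region being given to the gene of its nearest TSS. They were CG9970 (0.951 percentile points), CG42788 (1.06) and CG3009 (1.08). Their regions had signals of 198, 191 and 246, of 214, 167 and 201, and of 196, 172 and 264 in replicates 1, 2 and 3. All of these regions held the EGR core, 2 times in CG9970 and 1 time in each of the others, against 49.1% of all shared regions with it. The share among regions of similar strength was not counted, and the likeness is of signal rank only.

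Of 27 other genes of the pathway, from ligands to MAP kinase and its regulators, 16 (59.3%) had a shared region in the window, next to 5 of the 6 described here and 23.5% of all genes. The list was put together with earlier results known, and long genes have longer windows. The highest mean percentiles were those of dos, Mkp3 and RasGAP1. The adaptor gene dos had signals of 196, 160 and 211 in replicates 1, 2 and 3 (189 ± 26.3, SD, n = 3) at a region nearer to a TSS of msn. Mkp3, which encodes a phosphatase of MAP kinase, had 167, 152 and 156 (158 ± 7.63) with 5 shared regions in its window, more than aop or sty. RasGAP1, the Ras GTPase-activating protein gene also called Gap1, had a mean of 103 ± 21.0 (SD, n = 3) with 4 shared regions, and the highest of its signals was in replicate 3. The range of dos overlapped that of the aop promoter region, the range of Mkp3 lay below it, and both lay above all signals of the other 10 shared regions. The EGR core was in 4 of the 5 regions of Mkp3. No shared region was found at spi, grk, stet, Sos, Ras85D, Dsor1, rl, PTP-ER, kek1, Spred or tay. In the conservative list the window of Spred held 4 peaks and that of spi 1, and the rest of these genes had none. Of the 27 genes, 18 had a conservative peak, against 51.1% of all protein-coding genes.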

How the data were processed

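Per the labels and the deposited text notes, each of 3 ChIP-seq libraries gave a ranked and a thresholded peak list on dm6, made from its own alignment and 1 control file common to all. The thresholded lists also name 1 further input file, the same for all, whose content is not stated. The authors also deposited joint lists of the 3 libraries, of which the conservative and the longest were used. Neither aligner nor peak caller is given in the sources used here. The signal per peak is the authors' deposited value. The deposited score is a scaled IDR, at least 830 in thresholded lists, and the ranked lists deposited by the authors give the −log10 of the global IDR.

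Summits were widened by 100 bp, merged and assigned to genes of Ensembl release 115 (Release 6 coordinates, as dm6) within 10 kb, with Python 3.11.15, numpy 2.4.6 and pandas 2.3.3. Motifs were searched within 100 bp of each centre. Merging and motif search were tested on simulated data. All 3 libraries form 1 group, labelled as biological replicates. Precision is limited by list length, since depth is unknown. The genes, lists and motifs were chosen with earlier results of these data known. Named genes are the 6 genes, the genes nearest to their regions, the 3 pathway genes with the highest percentile and the 3 genes most alike in percentile. The pathway genes without a shared region are named outside this rule, after their values were seen. Alternatives covered the rule for sharing, threshold, lists, windows and each left-out replicate. The other joint lists were not used.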

Additional observations from a re-analysis of the deposited data

How the results depend on the processing

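The count of genes with a shared region was 5 under every alternative tried except a global IDR of 0.001 or less. That setting left 2 genes, 2 regions and 0 with the EGR core. Fewer libraries, a looser IDR or a wider window could hardly lower the count of 5. Narrower windows could have lowered it and did not. The count of 11 shared regions became 12 to 17 with 1 replicate left out (without replicate 2 it was highest). Regions with the core then numbered 3 to 6, against 3. Of all protein-coding genes, 3541 to 4469 (25.4% to 32%) then had a shared region, against 3278 (23.5%). Summits in 2 or more of 3 libraries gave 21 regions, 8 with the core and 5052 genes (36.2% of all). The conservative joint list gave 29, 8 and 7125 (51.1%), and the longest joint list 36, 10 and 7994 (57.3%). With the gene body only, 1 region had the core and 684 genes (4.9%) had a region. A window of 5 kb gave 2097 genes (15%), and one of 20 kb gave 5212 genes (37.4%) and 5 regions with the core. No paired analysis was possible because all libraries form 1 group. The cause of these shifts was not tested beyond the number of summits or the width of the windows that each setting changes.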
